A study of Rattus norvegicus and Mus musculus with 18 samples.

Results

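The genes of the gp130 cytokine pathway examined here were 8 in number, of 19333 genes that had at least 1 probe set annotated to a single gene symbol on these arrays. They comprised 4 receptor chains (Il6st, Lifr, Osmr and Cntfr), 2 ligands (Lif and Clcf1), the transcription factor Stat3 and the feedback inhibitor Socs3. Members were taken as every probe set whose annotation held only 1 of these symbols, whatever its level. This gave 38 probe sets, 24 on the mouse array for all 8 genes and 14 on the 3 rat arrays for 6 of them. Osmr and Clcf1 were not analysed in rat.

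Transcripts were measured on Affymetrix oligonucleotide arrays in hand-dissected tissues of the early metanephric kidney, the embryonic organ that becomes the adult kidney. Mouse tissue at E12.5 was split into tips of the ureteric bud (about 1000 pooled), stalks of the bud (about 350) and metanephric mesenchyme (about 300), with 2 arrays each. Rat tissue at E13.5 was split into whole ureteric buds (about 1200) and mesenchyme (about 240), and each was hybridised to 3 array designs, called the first design, B and C, with 2 arrays per tissue and design. All tissues were freed with DNase and trypsin for 10 min, and the labels name no strain, genotype or treatment beyond this. Both arrays of a tissue were separate labelings of 1 pooled RNA, so every p-value reflects labelling and hybridisation spread and not the spread between animals or pools.

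Cytokines of this family act through gp130, the signal-transducing chain encoded by Il6st, which pairs with Lifr or Osmr and, for some ligands, with the membrane-anchored chain Cntfr. Kinases of the JAK family bound to these chains phosphorylate Stat3, which moves to the nucleus and activates genes that include Socs3. The Socs3 protein binds gp130 and JAK and shuts the signal down. In culture, Lif has been reported to turn isolated rat metanephric mesenchyme into epithelium.

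In mouse, at least 1 probe set each of Lifr, Il6st and Socs3 was called lower in bud tips than in stalks, and of these genes and Cntfr lower than in mesenchyme. The remaining probe sets of these genes were not called, and by the mean of a gene's probe sets only Cntfr was called, against mesenchyme. A Lifr probe set stood in tips at 14.2 and 16.2 percent of its mean level in mesenchyme, with stalks in between, while Il6st and Socs3 probe sets were lower in tips, with stalks and mesenchyme close to each other. In these bulk tissues, fewer cells of a type and less RNA per cell cannot be told apart. Of 24 mouse member probe sets, 16 were tested, meaning that they reached the table's median intensity of 49.3 in the mean of 1 tissue or more. Compared with stalks, 4 of the 16 were lower in tips at an adjusted p under 0.05 and at least 2-fold, the rule used for every call, and 0 were higher. Over all 23919 tested probe sets 4.59% were called in this comparison, with 3.64% called lower and 0.953% called higher. In the mouse comparisons each of the probe sets past 2-fold also passed the p threshold (1098 of 1098, 1953 of 1953 and 663 of 663), so that there the fold alone decided the calls. Compared with mesenchyme, 4 of the 16 were again lower in tips and 0 higher, beside 8.17% called over all probe sets, 4.26% lower and 3.9% higher. Between stalks and mesenchyme 0 of 16 were called, beside 2.77% over all probe sets (2.35% higher and 0.426% lower in stalks). In that comparison 4 of the 16 had an unadjusted p under 0.05 in limma, for which no share over all probe sets was computed. At an adjusted p under 0.05, 2 were lower in stalks, beside 4.93% of all probe sets.

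Without the 2-fold requirement, 12 of the 16 tested probe sets were lower in tips than in stalks and 0 were higher, beside 14.8% of all probe sets that were lower by this rule. Compared with mesenchyme 11 were lower and 0 higher, beside 17.6% of all. The members' median log2 difference was -0.66 between tips and stalks and -0.59 between tips and mesenchyme, where the medians over all tested probe sets were 0.06 and 0.01. Between stalks and mesenchyme the members' median was 0.07 and that of all probe sets -0.05. These counts and medians leave out the 8 probe sets that never reached the table median. They also include 3 probe sets (Il6st 1421239_at, Cntfr 1431663_a_at and Stat3 1459961_a_at) that reached it only through stalks and mesenchyme, where they were high, so that the filter itself favoured a lower value in tips. Of the 12 probe sets that reached it in both tissues compared, 9 were lower in tips than in stalks and 8 lower than in mesenchyme. The share over all probe sets that reached it in both tissues was not computed. Each of the called member probe sets was among the 12. The 16 tested probe sets stand for 6 genes, so several read the same transcript. By the brightest probe set of each gene, 5 of the 6 were lower in tips than in stalks at an adjusted p under 0.05. By the same rule 4 of the 6 were lower than in mesenchyme.

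**Figure D1:**
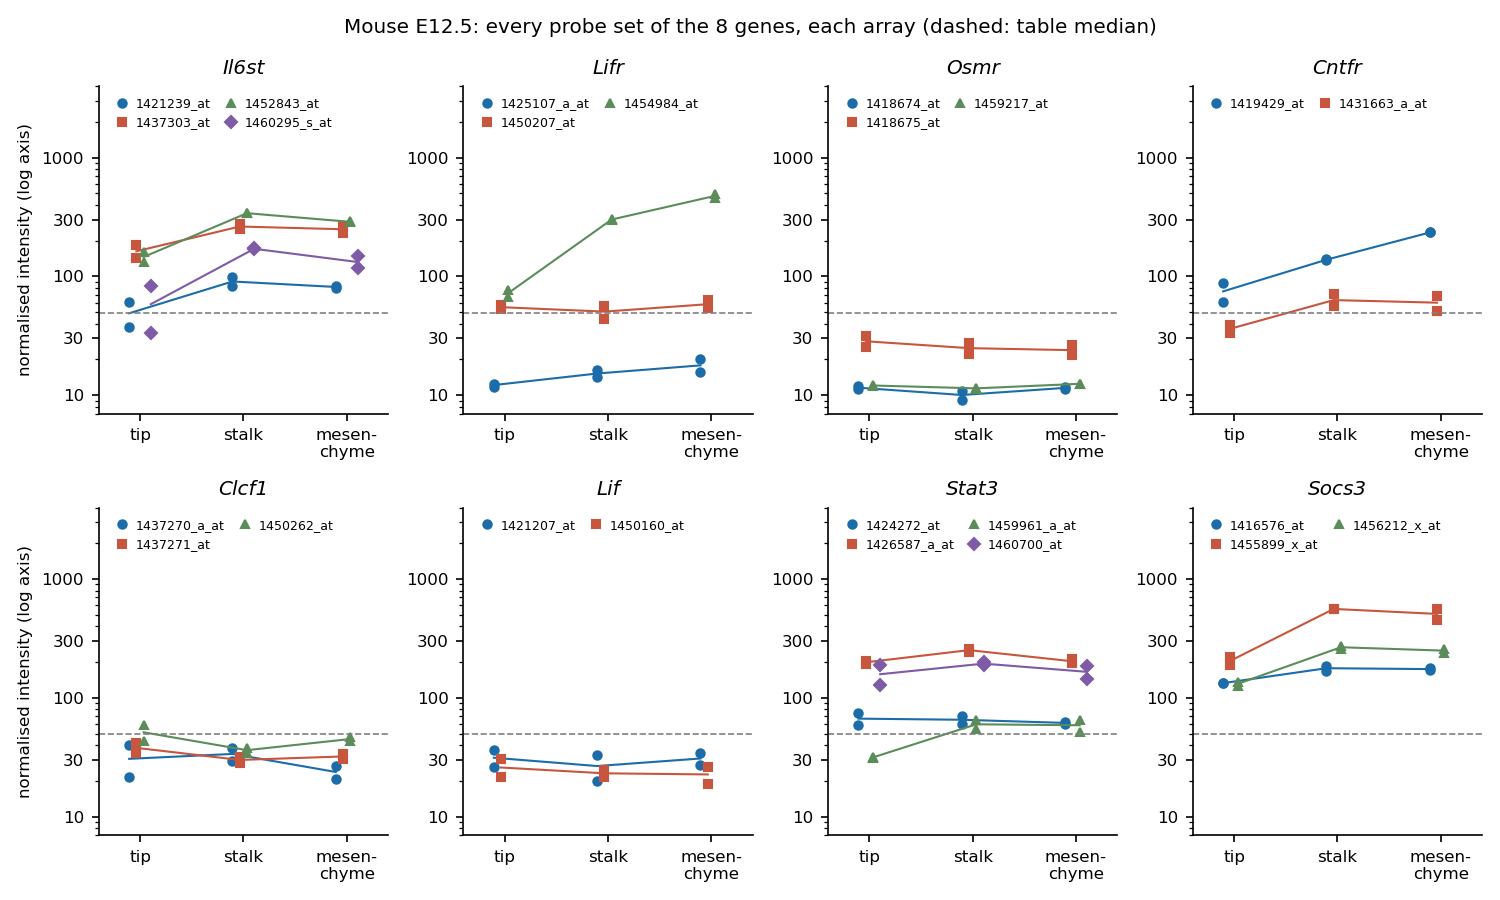
Quantile-normalised intensity on a log axis of every mouse probe set of the 8 genes in tips, stalks and mesenchyme at E12.5, with 1 panel per gene, 1 point per array, lines through the means of 2 arrays and a dashed line at the table median of 49.3. Tip points lie below stalk and mesenchyme points for the 4 Il6st probe sets, for Lifr 1454984_at, for both Cntfr and for the 3 Socs3 probe sets, whereas all Osmr and Lif points lie under the dashed line.

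Lifr, the chain that binds Lif and passes the signal on together with gp130, gave the widest separation. Probe set 1454984_at had intensities of 76.9 and 67.6 in tips, 303 and 298 in stalks, and 493 and 458 in mesenchyme. All 3 tissues were separate on every array, with tips lowest and mesenchyme highest. The tip mean of 72.3 ± 6.53 stood against 301 ± 3.75 in stalks and 475 ± 24.6 in mesenchyme (SD, n = 2 arrays each). On the log2(intensity + 16) scale, the difference of tips from stalks was -1.85 (SE 0.09, limma adjusted p = 2.03e-06) and that from mesenchyme -2.48 (SE 0.09, adjusted p = 1.55e-07). Stalks were lower than mesenchyme by this probe set as well, by -0.63 (adjusted p = 0.00223), which is under 2-fold.

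The other Lifr probe sets did not separate all 3 tissues. Probe set 1450207_at stood near the table median in every tissue, with 52.9 and 57.1 in tips, 44.1 and 56.8 in stalks, and 53.9 and 62.6 in mesenchyme. Its tip minus stalk difference was 0.10 (95% interval -0.24 to 0.44) and its tip minus mesenchyme difference -0.06 (-0.40 to 0.28). Probe set 1425107_a_at was under the median throughout and was not tested, with means of 12.2 ± 0.495 in tips, 15.2 ± 1.46 in stalks and 17.8 ± 3.13 in mesenchyme (SD, n = 2 arrays each). At this low level its tip arrays lay under all others and its means had the same order, while stalk and mesenchyme arrays overlapped. Averaged over all 3 of its probe sets, Lifr differed by -0.63 between tips and stalks and by -0.93 between tips and mesenchyme (adjusted p = 0.00123 and 0.000137), short of 2-fold in both. The called difference in Lifr therefore rests on 1 of 3 probe sets.

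Il6st encodes gp130 itself, and all 4 of its mouse probe sets were lower in tips. Probe set 1452843_at had 159 and 132 in tips, 341 and 339 in stalks, and 291 and 284 in mesenchyme. Tip arrays lay well under the rest, and stalk arrays lay slightly above mesenchyme. The difference of tips from stalks was -1.15 (SE 0.10, adjusted p = 4.89e-05) and from mesenchyme -0.91 (SE 0.10, adjusted p = 0.000116), the second short of 2-fold. With the first tip array left out, the difference from mesenchyme was -1.02 and would be called.

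Probe set 1460295_s_at, whose suffix marks probes shared by several transcripts, had 83.2 and 33.4 in tips, 169 and 172 in stalks, and 147 and 117 in mesenchyme. It was called in both comparisons, at -1.41 from stalks (SE 0.28, adjusted p = 0.00539) and -1.07 from mesenchyme (SE 0.28, adjusted p = 0.0164). Both calls turned on the second tip array, the low one of the pair. Without it the differences were -0.93 and -0.59, under 2-fold, and without the first mesenchyme array the second was -0.92 (adjusted p = 0.12).

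The remaining Il6st probe sets were lower in tips by less than 2-fold. Probe set 1421239_at had 37.4 and 60.3 in tips, 98.1 and 82.9 in stalks, and 79.1 and 83.6 in mesenchyme, with differences of -0.73 from stalks (adjusted p = 0.0167) and -0.61 from mesenchyme (adjusted p = 0.0316). Its tip mean was under the filter. With the second tip array left out its difference from stalks was -1.01 and would be called. Probe set 1437303_at had 182 and 143 in tips, 275 and 250 in stalks, and 266 and 232 in mesenchyme, and differed by -0.65 from stalks (adjusted p = 0.00512) and by -0.58 from mesenchyme (adjusted p = 0.00739). No Il6st probe set separated stalks from mesenchyme at an adjusted p under 0.05, with differences of 0.07 to 0.34, so the order of these tissues is not settled.

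Cntfr, the anchored chain that gives Clcf1 and Cntf their specificity, was highest in mesenchyme by 1 probe set, while stalks and mesenchyme overlapped by the other. Probe set 1419429_at had 60.7 and 88.7 in tips, 139 and 137 in stalks, and 234 and 234 in mesenchyme. As for Lifr 1454984_at, the 3 tissues did not overlap and tips were lowest. It was called against mesenchyme, at -1.48 (SE 0.15, adjusted p = 8.58e-05), while its differences of tips from stalks, -0.78 (adjusted p = 0.00519), and of stalks from mesenchyme, -0.70 (adjusted p = 0.0169), passed the p threshold alone. Without the second tip array the difference of tips from stalks was -1.03 and would be called.

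Probe set 1431663_a_at of Cntfr had 33.2 and 39.2 in tips, 70.4 and 55.8 in stalks, and 68.6 and 51.4 in mesenchyme. Stalk and mesenchyme arrays overlapped, and both tip arrays were under them and under the filter. The differences of tips were -0.60 from stalks (adjusted p = 0.0268) and -0.53 from mesenchyme (adjusted p = 0.0361). Averaged over both probe sets, Cntfr was the only member gene called in any mouse comparison by its mean, at -1.01 for tips from mesenchyme (adjusted p = 0.000992).

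Osmr, the chain that pairs with gp130 to bind oncostatin M, stayed under the table median on every mouse array by all 3 of its probe sets. Probe set 1418675_at had 31.2 and 25.6 in tips, 22 and 27.7 in stalks, and 21.6 and 26.2 in mesenchyme, with overlapping tissues. Probe set 1418674_at lay between 9.15 and 11.9 on all arrays, and 1459217_at averaged 12.1 ± 0.259 in tips, 11.4 ± 0.141 in stalks and 12.4 ± 0.0943 in mesenchyme (SD, n = 2 arrays each). None was tested, and a level this low sets no bound on how much Osmr transcript was present.

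**Figure D2:**
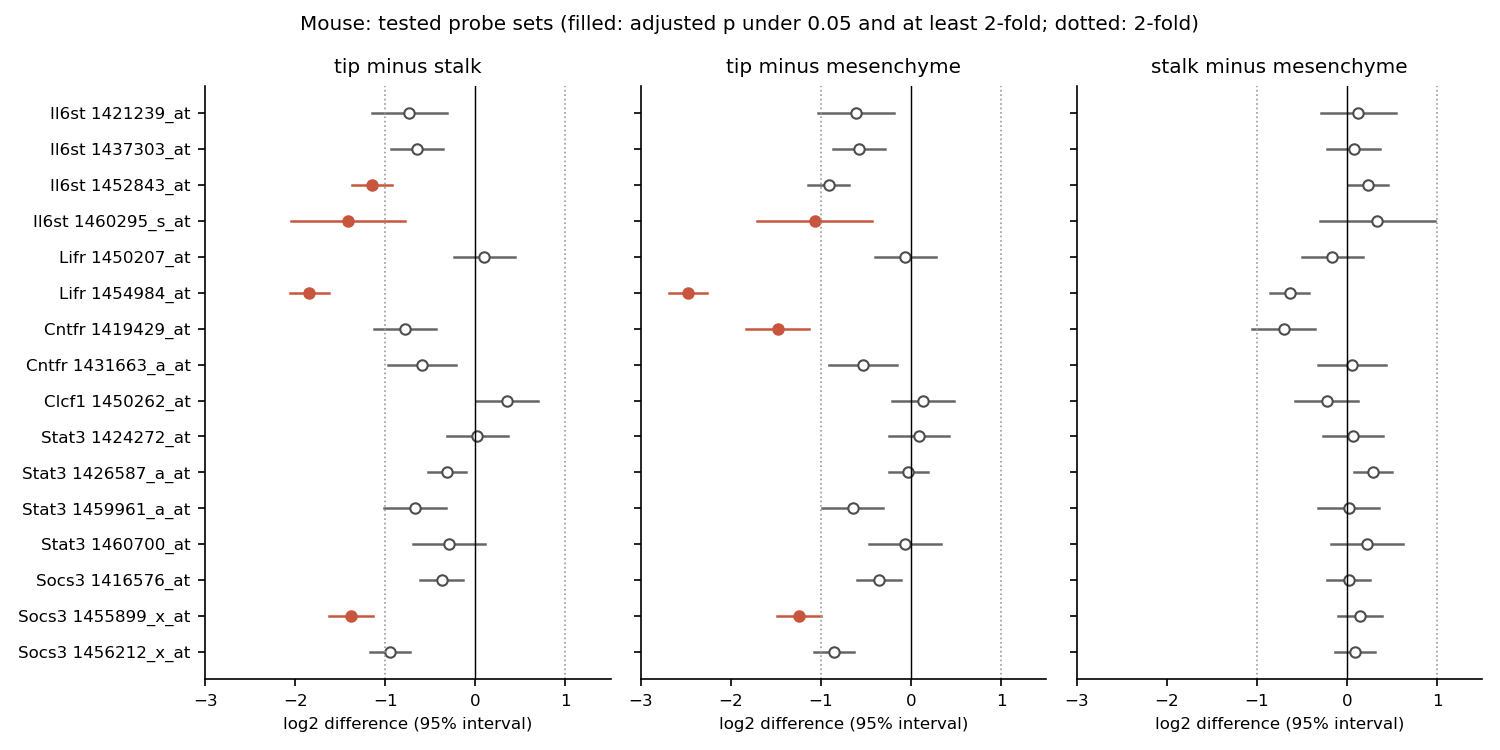
Log2 differences on the log2(intensity + 16) scale with 95% intervals for the 16 tested mouse probe sets, in the panels tip minus stalk, tip minus mesenchyme and stalk minus mesenchyme. Filled red points mark calls, 4 on the lower side in each tip comparison, from -1.07 for Il6st 1460295_s_at to -2.48 for Lifr 1454984_at, and 0 between stalks and mesenchyme.

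The ligands were near or under the table median in mouse. Lif, which in culture converts metanephric mesenchyme to epithelium, had 26.4 and 36.2 in tips, 20.1 and 33.2 in stalks, and 27.1 and 34.6 in mesenchyme by 1421207_at. By 1450160_at the values were 21.4 and 30.4 in tips, 21.7 and 24.6 in stalks, and 19 and 26.3 in mesenchyme. Tissues overlapped for both probe sets, which were not tested.

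Clcf1, a secreted ligand of the Cntfr complex, had 1 tested probe set of 3. Probe set 1450262_at had 43.4 and 59.1 in tips, 34.5 and 38 in stalks, and 46.4 and 43.6 in mesenchyme, so only the second tip array exceeded the median and the probe set was tested through tips alone. Tips were above stalks on both arrays, by a log2 difference of 0.36 (95% interval 0.01 to 0.70) that did not pass adjustment (adjusted p = 0.118). Tips and mesenchyme overlapped, with a difference of 0.13 (-0.21 to 0.47). The untested probe sets 1437270_a_at and 1437271_at lay between 20.7 and 41.6 on all arrays.

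Stat3, the transcription factor through which gp130 chiefly acts, differed little between tissues by 3 of its 4 mouse probe sets. Probe set 1426587_a_at had 205 and 193 in tips, 260 and 244 in stalks, and 211 and 195 in mesenchyme, lower in tips than in stalks by -0.32 (adjusted p = 0.0316). Stalks were highest on both arrays, and tips and mesenchyme overlapped. Probe set 1460700_at had 128 and 188 in tips, 199 and 189 in stalks, and 145 and 186 in mesenchyme, with differences of -0.29 from stalks and -0.07 from mesenchyme (adjusted p = 0.258 and 0.818). Probe set 1424272_at had 59.3 and 74.3 in tips, 60.3 and 70.4 in stalks, and 60.4 and 62.6 in mesenchyme, with tip differences of 0.02 (-0.31 to 0.36) from stalks and 0.09 (-0.24 to 0.42) from mesenchyme.

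The exception among the Stat3 probe sets was 1459961_a_at, with 32 and 31 in tips, 65.4 and 54.3 in stalks, and 65.5 and 52 in mesenchyme. Both tip arrays were under the table median and under all others, so that the probe set was tested only through the tissues where it was high. The differences of -0.67 from stalks (adjusted p = 0.00972) and -0.65 from mesenchyme (adjusted p = 0.00918) were under 2-fold. Averaged over 4 probe sets, Stat3 differed by -0.31 between tips and stalks (adjusted p = 0.0262) and by -0.16 between tips and mesenchyme (adjusted p = 0.166).

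Socs3, the inhibitor that Stat3 induces, was lower in tips by all 3 probe sets. Probe set 1455899_x_at had 221 and 189 in tips, 558 and 562 in stalks, and 562 and 455 in mesenchyme. Tips were separate from both other tissues, which overlapped. The differences of tips were -1.38 from stalks (SE 0.11, adjusted p = 2.6e-05) and -1.24 from mesenchyme (SE 0.11, adjusted p = 2.73e-05), and both were called. The suffix of this probe set marks probes that may also bind other transcripts, and the probe set without the mark changed less.

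Probe set 1456212_x_at of Socs3 had 137 and 125 in tips, 274 and 259 in stalks, and 260 and 239 in mesenchyme. Its differences were -0.94 from stalks (adjusted p = 0.000145) and -0.86 from mesenchyme (adjusted p = 0.000158), just short of 2-fold. With the values as deposited the difference from stalks was -1.03 and would be called. Probe set 1416576_at had 134 and 132 in tips, 168 and 187 in stalks, and 177 and 172 in mesenchyme, and differed by -0.38 from stalks (adjusted p = 0.0277) and by -0.36 from mesenchyme (adjusted p = 0.0292). The 3 probe sets thus all had tips lowest, by -0.36 to -1.38, while stalk and mesenchyme arrays overlapped for each.

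The pools also differed in markers of other cell types. The labels of the tissues were borne out by epithelium markers (5 measured), whose summed intensity was 21172 to 21522 in tips, 11373 to 11543 in stalks and 372 to 432 in mesenchyme. The stalk pool, however, held stroma and ureteric mesenchyme markers (7 measured) at 11086 to 11320, above the 9350 to 9470 of mesenchyme, where tips had 891 to 1120. All 7 were lowest in tips, but between stalks and mesenchyme they were mixed, with 3 called higher in stalks, 3 without a call and 1 lower, Foxd1 (means 861 in stalks and 1906 in mesenchyme, -1.13, adjusted p = 0.00104). Endothelium markers (6 measured) summed to 531 to 536 in tips, 1323 to 1364 in stalks and 2069 to 2088 in mesenchyme, and nephron progenitor markers (5 measured) to 429 to 509, 1538 to 1596 and 5015 to 5127 in the same tissues. Macrophage and leukocyte markers (5 measured) summed to 280 to 320 in tips, 500 to 520 in stalks and 716 to 752 in mesenchyme. The exception in that list was Ptprc, a pan-leukocyte gene, with means of 67.8 in tips, 62.7 in stalks and 28.8 in mesenchyme. The order of tips under stalks under mesenchyme held for 6 of 6 endothelium, 5 of 5 nephron progenitor, 4 of 5 macrophage and leukocyte, 3 of 3 erythroid and 3 of 4 neuronal markers, and no marker of any list was at 0.

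Set beside these sums, Il6st 1452843_at and Socs3 1455899_x_at had tips lowest, as did the summed stroma, endothelium, nephron progenitor and macrophage lists. Their stalk minus mesenchyme differences were 0.23 and 0.14 (limma adjusted p = 0.18 and 0.482), so the order of stalks and mesenchyme is not settled. Lifr 1454984_at and Cntfr 1419429_at had tips under stalks and stalks under mesenchyme. That was the order of the endothelium, nephron progenitor and erythroid lists and of the summed macrophage and neuronal lists. In percent of the highest tissue mean, the tip arrays of Lifr stood at 14.2 and 16.2 and those of Cntfr at 25.9 and 37.9. The tip arrays of Il6st stood at 38.8 and 46.6 and those of Socs3 at 33.8 and 39.5. Among the lists, stroma stood at 7.95 and 10, nephron progenitor at 8.46 and 10 and erythroid at 16.8 and 17.2. The neuronal list stood at 21.5 and 21.7, endothelium at 25.5 and 25.8 and macrophage at 38.1 and 43.6. The part of cell makeup in the members' differences was not tested.

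**Figure D3:**
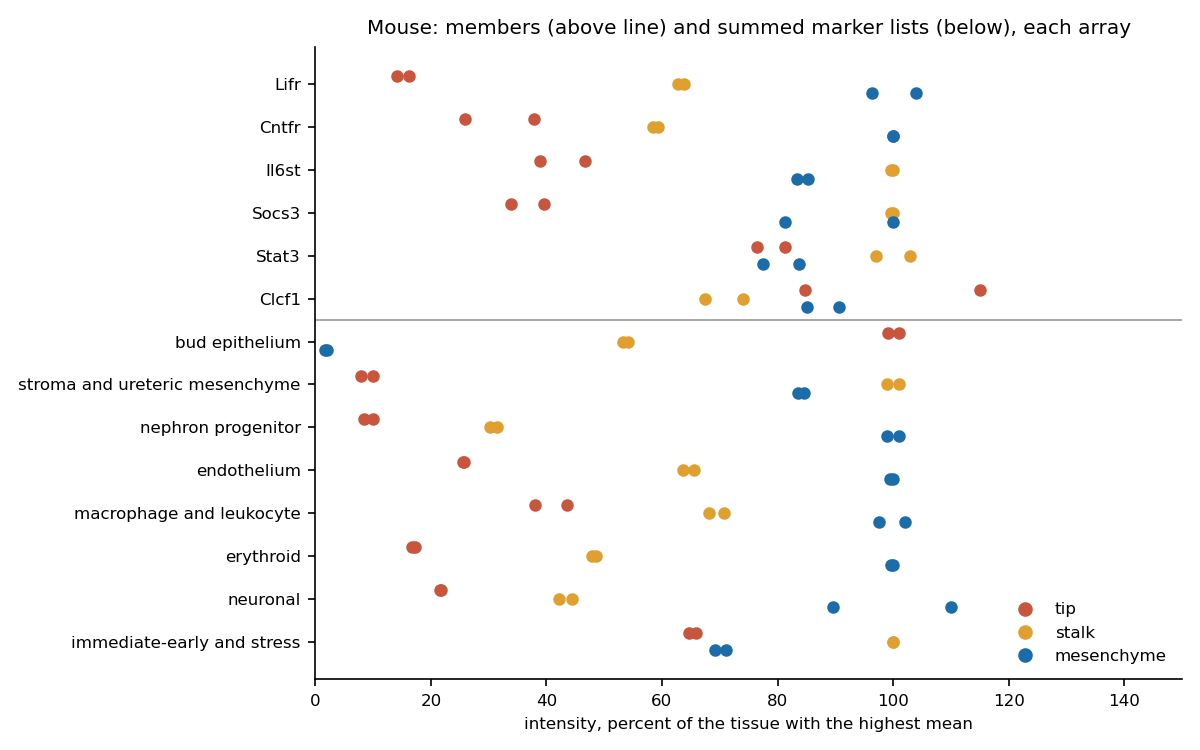
Intensity in percent of the tissue with the highest mean, for the probe set with the highest mean level of each tested member (above the line) and for summed marker lists (below it), with 1 point per mouse array. Lifr and Cntfr points run from tip through stalk to mesenchyme, while Il6st and Socs3 have stalk and mesenchyme points between 81.3 and 100 percent and tip points at 46.6 percent or lower.

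Genes that respond within minutes to handling also differed between the pools. The summed intensity of 14 immediate-early and stress genes was 14898 to 15206 in tips, 23046 to 23094 in stalks and 15965 to 16407 in mesenchyme. Fos had 2328 and 2177 in tips, against 6691 and 6709 in stalks and 4987 and 5437 in mesenchyme, and was called lower in tips in both comparisons (-1.57 and -1.20, adjusted p = 1.38e-07 and 2.83e-07). Of the list, 2 of 14 genes were called lower in tips than in stalks, beside 3.64% of all probe sets. Compared with mesenchyme 1 was called lower, beside 4.26% of all, and 0 were called higher in either comparison. At an adjusted p alone, 0 were higher in tips than in stalks and 10 lower, beside 14.8% of all probe sets that were lower. By the same rule 8 were higher in tips than in mesenchyme and 3 lower, beside 17.6% of all that were lower and 33.7% in either direction. Socs3, which cytokines induce rapidly, was lower in tips than in both stalks and mesenchyme, as Fos was. The list as a whole did not share this direction against mesenchyme, where its median log2 difference was 0.277. The part of handling in the Socs3 difference was not tested.

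Other genes of the pathway differed between tissues in both directions. From 5 lists of 42 other genes (further ligands, further receptors, JAK and STAT genes, feedback genes and adaptors, and genes known as Stat3 targets), 37 were measured in mouse and 29 tested, each by the probe set with the highest mean. Compared with stalks, 1 of 29 was called higher in tips and 0 lower, a share of 3.45% beside 4.59% of all probe sets. Compared with mesenchyme 3 were called higher and 1 lower, a share of 13.8% beside 8.17%. At an adjusted p alone, 5 were higher and 8 lower in tips than in stalks (44.8%, beside 28.6% of all probe sets), and 5 were higher and 7 lower than in mesenchyme (41.4%, beside 33.7%). Between stalks and mesenchyme 0 were called in limma, with 16 at an unadjusted p under 0.05, for which no share over all probe sets was computed. At an adjusted p alone 6 were higher and 3 lower in stalks (31%, beside 13.1%). The listed genes are each represented by their brightest probe set, which the share over all probe sets is not.

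Socs2, a relative of Socs3 that dampens growth hormone signalling, went the opposite way to Socs3. It had 143 and 114 in tips, 48.1 and 41.9 in stalks, and 30.8 and 22.4 in mesenchyme, and differed by 1.24 from stalks (SE 0.16, adjusted p = 0.000587) and 1.76 from mesenchyme (SE 0.16, adjusted p = 4.23e-05). All stalk and mesenchyme arrays of Socs2 were under the table median, so that it was tested only through tips, where it was high. The kinase gene Jak2, whose product binds gp130, had 542 and 615 in tips, 418 and 422 in stalks, and 243 and 270 in mesenchyme. It was called higher in tips than in mesenchyme (1.12, adjusted p = 9.38e-06).

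Among genes known as Stat3 targets, 1 was called higher and 1 lower in tips than in mesenchyme. Ccnd1, the cyclin that drives entry into the cell cycle, had 2462 and 2252 in tips and 1068 and 1139 in mesenchyme (1.08, adjusted p = 8.41e-07). Cebpd, a transcription factor of the acute phase response, had 45.9 and 34.4 in tips and 113 and 95.3 in mesenchyme (-1.10, adjusted p = 0.000547). Both Cebpd tip arrays were under the table median, so that it was tested only through stalks and mesenchyme, where it was high. The list's median differences were -0.19 from stalks and -0.03 from mesenchyme over 11 tested genes.

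Of 5 other ligands measured, only Ctf1, the gene of cardiotrophin 1, reached the table median, and it is named for that reason after its values were seen. It had 262 and 274 in tips, 188 and 217 in stalks, and 208 and 216 in mesenchyme, and was higher in tips by 0.38 and 0.32 (adjusted p = 0.0176 and 0.0328), under 2-fold. Il6, Il11, Osm and Ebi3 stayed under the median. Neither of the receptor genes measured beyond the members, Il6ra and Il27ra, was called.

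**Figure D4:**
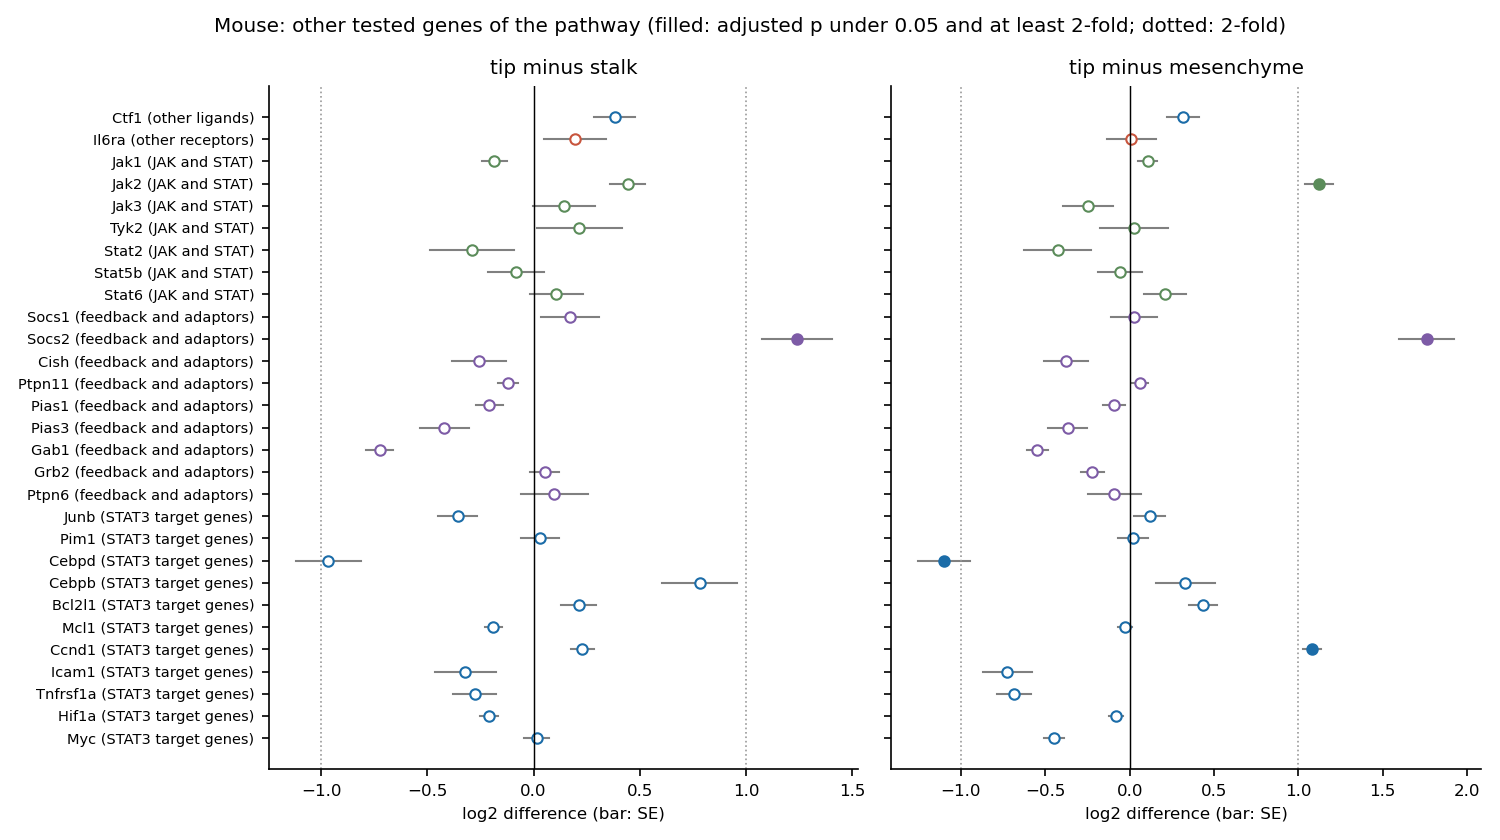
Log2 differences on the log2(intensity + 16) scale (bars, SE) of the 29 tested pathway genes other than the members, for tip minus stalk on the left and tip minus mesenchyme on the right, coloured by list. Filled points mark calls, Socs2 at 1.24 and 1.76 in the 2 panels and Jak2, Ccnd1 and Cebpd in the right panel only.

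For each member gene called by its brightest probe set, the 3 genes whose centred log2 values lay closest over the 6 mouse arrays were found among 12353 other tested genes. Lifr 1454984_at lay closest to the homeobox genes Hoxa5 (root-mean-square distance 0.03) and Hoxd11 (0.05) and to Chl1, a neural cell adhesion gene (0.08). Hoxa5 means were 146 in tips, 586 in stalks and 915 in mesenchyme. Cntfr 1419429_at lay closest to Sox7, a transcription factor gene of endothelium (0.06), the matrix protein gene Sned1 (0.07) and Mpeg1, a macrophage gene (0.11). Il6st 1452843_at lay closest to Ptgr1 (0.05), Mdfi (0.05) and Rarres2 (0.05), and Socs3 1455899_x_at to the homeobox gene Pbx3 (0.04), Pcdhb17 (0.08) and Taf9b (0.09). These distances come from 3 tissues and describe only how closely the centred levels match over the 6 arrays.

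In rat, no member was called between whole buds and mesenchyme. Of 14 rat probe sets 10 were tested, 4 on the first design, 3 on B and 3 on C, with table medians of 111, 118 and 115. All 10 tested estimates were lower in buds, from -0.46 to -0.06, where the medians over all tested probe sets were 0.023, -0.021 and -0.015. The share of all probe sets with a lower estimate was not computed, so this count shows nothing particular to the members. The lowest, Stat3 X91810_at, was tested only through mesenchyme, where it was high. Of the 10, 4 were for Stat3 and 3 for Il6st, and those of Lif and Socs3 changed sign with 1 bud array left out. None had an adjusted p under 0.05 in limma (over all probe sets 11.7%, 17.4% and 11.2% on the 3 designs). At an unadjusted p under 0.05 there were 4, with no share over all probe sets computed. Over all tested probe sets 5.78% were called on the first design, 5.78% on B and 4.63% on C. The second bud labeling stood apart on each design, where the 3' end of the Gapdh control read 4.43, 5.28 and 4.26 times the 5' end, beside 1.25 to 1.47 times on all other rat arrays. Tested Il6st, Cntfr, Lif and Socs3 probe sets and Stat3 X91810_at are therefore given with and without that array. A fit without it takes the single bud array to vary like the mesenchyme pair. The other tested Stat3 probe sets are given only with it. Over 11 alternatives, its omission among them, their differences ranged from -0.45 to -0.32 (rc_AI008865_s_at), -0.09 to -0.03 (rc_AI012356_at) and -0.32 to -0.25 (rc_AI236828_s_at).

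Il6st was tested by 3 rat probe sets. On design C, rc_AI171807_at had 390 and 327 in buds and 453 and 424 in mesenchyme, and rc_AI176160_at had 109 and 127 in buds and 142 and 160 in mesenchyme. Buds were under mesenchyme on every array for both, by -0.28 and -0.32 (adjusted p = 0.219 and 0.167), and by -0.16 and -0.41 without the second bud labeling. On design B, rc_AI044396_at had 187 and 146 in buds and 185 and 209 in mesenchyme, which overlapped, with a difference of -0.23 (adjusted p = 0.318) and -0.07 without that labeling. A further probe set, M92340_at, was under the median of the first design at 49.2 and 33.5 in buds and 65.1 and 52.2 in mesenchyme.

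The rat Lifr probe set D86345_at was under the median, with 38.5 and 36.8 in buds and 40.8 and 44.8 in mesenchyme, and was not tested. The lower level of Lifr in mouse tips therefore could not be compared with rat. Cntfr S54212_at had 251 and 169 in buds and 293 and 242 in mesenchyme, which overlapped. Its difference was -0.35 (adjusted p = 0.345) and -0.08 without the second bud labeling, which was its low value.

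Lif, under the median in mouse, was above it in rat. Probe set AB010275_s_at had 153 and 190 in buds and 172 and 188 in mesenchyme, which overlapped, with a difference of -0.07 (95% interval -0.43 to 0.30). Without the second bud labeling the difference was -0.21 and without the first 0.08, neither with an adjusted p under 0.05. Levels on arrays of different species and probes cannot be set against each other, so this says only where each lay within its own table.

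Rat Stat3 was represented by 6 probe sets, 4 of them tested. The strongest signal was rc_AI008865_s_at on design B, with 564 and 558 in buds and 705 and 772 in mesenchyme (-0.39, adjusted p = 0.0711). On the first design X91810_at had 76.2 and 93.6 in buds and 112 and 133 in mesenchyme (-0.46, adjusted p = 0.138), and on design C rc_AI236828_s_at had 275 and 273 in buds and 332 and 345 in mesenchyme (-0.29, adjusted p = 0.129). Buds lay under mesenchyme on every array for these 3 probe sets. Without the second bud labeling, X91810_at was the 1 member of 10 with an adjusted p under 0.05, at -0.59 (adjusted p = 0.00201), still under 2-fold. It was tested only through mesenchyme, where it was high, as both bud arrays were under the median of 111.

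The remaining Stat3 probe sets gave smaller differences or none that could be tested. On design B rc_AI012356_at had 151 and 148 in buds and 160 and 153 in mesenchyme (-0.06, adjusted p = 0.734). Under the median, rc_AI059916_f_at had 65.7 and 72.7 in buds and 66.8 and 68.3 in mesenchyme on design B, and rc_AI639141_at had 24.9 and 28.1 in buds and 24.9 and 24.7 in mesenchyme on the first design. Socs3 AF075383_at had 223 and 163 in buds and 232 and 199 in mesenchyme, which overlapped, with a difference of -0.16 (95% interval -0.58 to 0.27). Without the second bud labeling it was 0.05, so even the sign rests on that array.

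**Figure D5:**
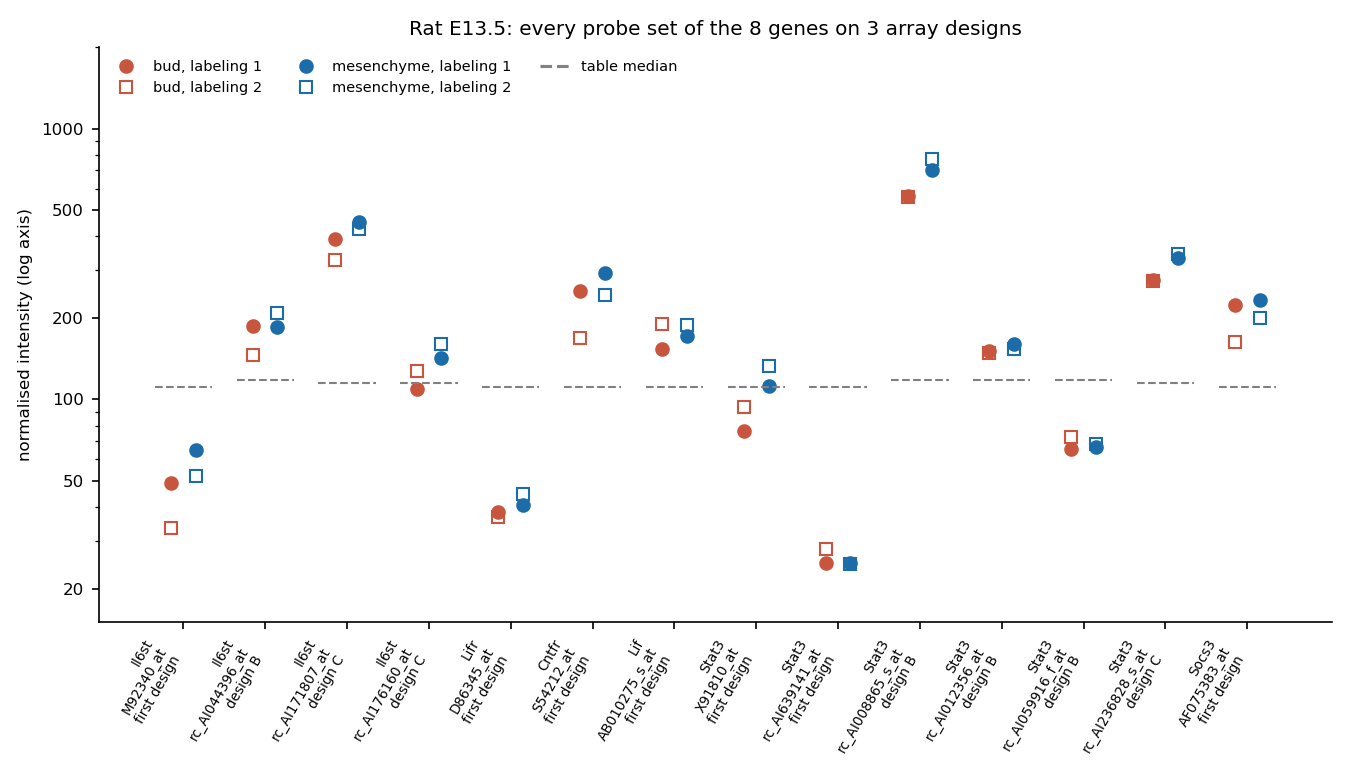
Quantile-normalised intensity on a log axis of every rat probe set of the 8 genes, with buds in red left of mesenchyme in blue, filled circles for the first labeling, open squares for the second and dashed lines at each table's median. Bud points lie under mesenchyme points for Stat3 X91810_at, rc_AI008865_s_at and rc_AI236828_s_at and for Il6st on design C, while Lif, Cntfr and Socs3 overlap.

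Marker and handling genes also differed between the rat pools. On the first design, stroma and ureteric mesenchyme markers (6 measured) summed to 804 to 843 in buds and 3424 to 3901 in mesenchyme. Epithelium markers (4 measured) summed to 1847 to 2521 in buds and 479 to 530 in mesenchyme. Immediate-early and stress genes (10 measured) summed to 8925 to 9882 in buds and 6040 to 6081 in mesenchyme, while Socs3 overlapped. Their part in the members' values was not tested.

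Among the other pathway genes in rat, 1 of 15 tested on the first design was called, 0 of 9 on design B and 0 of 4 on design C. On each design 2 had an unadjusted p under 0.05 in limma, for which no share over all probe sets was computed. The 1 called was Ccnd1, with 1328 and 1463 in buds and 595 and 572 in mesenchyme (1.23, adjusted p = 0.00163). It was higher in the bud tissue in both species, in mouse as tips against mesenchyme. Differences between the species were not tested, because mouse tips and rat whole buds are different tissues on different arrays.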

How the data were processed

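The deposited tables hold 1 linear intensity per probe set and array, with no 0 values. Per the labels, 1 ug of total RNA per tissue was labelled in 2 labelings. How the authors scaled and summarised the probes is not given in the sources used here. Intensities were quantile normalised within each of 4 tables and transformed to log2(intensity + 16), which understates changes at low levels. Control probe sets were then dropped, and a probe set was tested if any tissue's mean reached the table median. This left 23919 of 45037 mouse probe sets, and 4616, 4657 and 4648 on the rat designs.

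Tissues were compared by limma 3.58.1 under R 4.3.3 (lmFit, eBayes with an intensity trend), with all 6 mouse arrays in 1 fit and each rat table fitted alone, and Benjamini-Hochberg adjustment over all tested probe sets. Genes were named from platform annotation, and only from probe sets with 1 symbol (34945 in mouse). Shares over all probe sets were computed for calls and for adjusted p-values, so counts at an unadjusted p stand without one. The number of arrays limits the precision.

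The members and lists were chosen with earlier results of these data known. Named were all member probe sets, up to 6 called genes per comparison from the pathway lists, the 3 nearest profiles of each called member, and at most 3 marker genes per statement. Alternatives covered normalization, pseudocount, filter, variance trend, call rule, replicate block and each array left out.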

Additional observations from a re-analysis of the deposited data

How the results depend on the processing

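Calls of member probe sets depended mainly on the fold required. With no fold minimum 12, 11 and 2 member probe sets were called for tip minus stalk, tip minus mesenchyme and stalk minus mesenchyme, and with a 1.5-fold minimum 10, 8 and 2. Of other pathway genes, 13 (8 lower), 12 (7 lower) and 9 (3 lower) were called with no fold minimum, and 2 on rat design B. With a 1.5-fold minimum 4 were called between tips and stalks, 2 between stalks and mesenchyme and 1 on design B. With a pseudocount of 64 the tip minus stalk calls were 2 member probe sets and 0 pathway genes, and with a pseudocount of 1 there were 2 pathway genes. Leaving out 1 array gave 4 to 5 member calls for tip minus stalk, 3 to 5 for tip minus mesenchyme and 0 elsewhere, and 1 to 2 pathway calls for tip minus stalk and 3 to 4 for tip minus mesenchyme. With the mean of all probe sets of a gene, pathway calls were 0 for tip minus stalk, 2 for tip minus mesenchyme and 0 on the first rat design.

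Lifr 1454984_at and Socs3 1455899_x_at kept their calls in both tip comparisons, and Cntfr 1419429_at against mesenchyme, under all 13 alternatives, with differences of -2.70 to -1.98 for Lifr and -1.39 to -1.09 for Socs3 from mesenchyme. Il6st 1460295_s_at lost its call against mesenchyme with a pseudocount of 64 (-0.71) and without an intensity trend (adjusted p = 0.0554), and against stalks with a pseudocount of 64 (-0.97). Il6st 1452843_at lost its call against stalks with a pseudocount of 64 (-0.95). Socs3 1456212_x_at gained one against stalks with deposited values (-1.03), a trimmed-mean scaling (-1) and a pseudocount of 1 (-1.02). The cause was not tested.

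Signs turned only for differences that were not called. Stat3 1459961_a_at, stalk minus mesenchyme, was -0.0168 with trimmed-mean scaling and -0.11 to 0.15 with 1 array left out. With 1 array left out, Stat3 1424272_at ranged from -0.11 to 0.15 (tip minus stalk), -0.0415 to 0.22 (tip minus mesenchyme) and -0.0224 to 0.155 (stalk minus mesenchyme). For tip minus mesenchyme, Stat3 1426587_a_at ranged from -0.0815 to 0.0226, Stat3 1460700_at from -0.328 to 0.181 and Lifr 1450207_at from -0.146 to 0.0226, and Lifr 1450207_at for tip minus stalk from -0.0371 to 0.238. For stalk minus mesenchyme, Cntfr 1431663_a_at ranged from -0.10 to 0.22, Il6st 1437303_at from -0.0186 to 0.168, Socs3 1416576_at from -0.0544 to 0.0899 and Socs3 1455899_x_at from -0.00627 to 0.289. In rat, Lif ranged from -0.214 to 0.0796 and Socs3 from -0.371 to 0.0524.

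Over all probe sets, calls numbered 1098, 1953 and 663 in mouse and 267, 269 and 215 on the rat designs. With no fold minimum they were 6845, 8060 and 3133 and 539, 810 and 521. With 1.5-fold they were 2596, 3748 and 1473 and 509, 615 and 452. With a pseudocount of 64 they were 671, 1266 and 392, and 172 on design B. Leaving out 1 rat array gave 243 to 477 on the first design, 228 to 369 on B and 77 to 360 on C. Deviations of same-numbered arrays correlated at 0.423 to 0.566 in mouse and 0.222 to 0.309 in rat, but the labels give the numbers no meaning. With the replicate number as a block the calls were 4, 4 and 0 member probe sets in mouse and 0 on each rat design. In mouse this could not have differed, since the block leaves the fold changes as they are and the fold decided the calls. At an adjusted p alone the block gave 10021, 10344 and 5416 probe sets in mouse, of which 13, 11 and 3 were members, and 0, 0 and 0 members on the rat designs.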
